A study of Mus musculus with 12 samples.

Results

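Open chromatin was compared between wild-type and super-enhancer knockout Th2 cells of the mouse, the helper T cells that make IL-4, IL-5 and IL-13. The comparison rested on 4 of the 12 ATAC-seq samples of the series, chosen because their source name and their peak list name Th2 cells. ATAC-seq uses the Tn5 transposase to insert adapters into accessible DNA, so a called peak marks open chromatin. The 2 wild-type samples came from C57BL/6J mice and the 2 knockout samples from the strain labelled C57BL/6J-Ets1-SE-KO, a knockout of a super-enhancer, meaning closely spaced enhancers that act on the same gene, here Ets1. Naive CD4+ T cells were taken from the spleen by negative selection. All 4 cultures were then held for 6 days with IL-4 at 50 ng/mL, an antibody that blocks interferon-gamma, and antibodies to CD3 and CD28. The labels number the samples of each genotype as biological replicates but do not say which animals they came from, so p-values measure the spread between these samples only. Their sex and age were not in the labels used here.

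Th2 cells arise when IL-4 signals through its receptor and STAT6, which induces Gata3, the master regulator of the lineage. GATA3 acts on the cytokine locus that holds Il4, Il13 and Il5 beside the DNA repair gene Rad50. Ets1 encodes a transcription factor of the ETS family, abundant in T cells, and is known for its role in Th1 cells, the type that makes interferon-gamma.

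The titles of both knockout samples name Th1 cells, against their source name and peak list, so the cell type was checked first. Of the 11779 regions with a peak in wild type 1 and in no wild-type naive or Th1 library, wild type 2 had a peak at 54.3%. Knockout 1 had one at 60.9% and knockout 2 at 54.7%, whereas the Th1 knockout libraries had one at 23.8% and 18.9%. Of the 10435 such regions chosen in wild type 2, wild type 1 had a peak at 61.3%, knockout 1 at 65.0%, knockout 2 at 59.2% and the Th1 knockout libraries at 25.4% and 20.4%. Both Th2 knockout libraries thus carried these regions at rates near those of the wild-type replicate and above those of the Th1 knockout libraries. Within 20 kb of Ifng, the interferon-gamma gene, the Th2 libraries had 2, 1, 2 and 1 peaks (wild type 1 and 2, then knockout 1 and 2), against 5, 4, 4 and 4 in the Th1 libraries in the same order. Within 20 kb of Tbx21, the gene of the Th1 factor T-bet, the counts did not set the cell types apart, with 3, 3, 5 and 3 peaks in the Th2 libraries and 5, 3, 5 and 4 in the Th1 libraries, and knockout 1 had as many as the highest Th1 libraries. Il12rb2, a Th1 marker gene, had 10 regions with a peak in each Th2 library within 1 kb. Of the 5 Th2 marker genes Gata3, Il4, Il5, Il13 and Il1rl1, the libraries had a peak within 1 kb of 4, 4, 5 and 4. Below, the libraries labelled knockout are called by that label.

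The Th2 lists held 54160 and 51600 peaks in wild type and 56357 and 52561 in knockout. The means were 52880 ± 1810 and 54459 ± 2684 (SD, n = 2 each), and an exact two-sided permutation test gave p = 0.667, where 2 against 2 cannot go below 0.333. Overlapping peaks were merged into 73403 regions, out of 110642 for all 12 samples. The reads behind each list are unknown, so a missing peak means only that none was called. Markers of other cell types were read within 1 kb of each gene. Of 4 CD8 and NK cell markers 2, 0, 1 and 1 had a peak, of 4 B cell markers 1, 1, 2 and 1, of 4 myeloid markers 1, 1, 2 and 2, and of 4 red cell markers 1 in each library. Those with peaks included Pax5 (2, 2, 2 and 1 regions), Klf1 (1 in each) and Itgam (1, 1, 2 and 1). Ncr1, Ms4a1, Csf1r and Lyz2 had none in any library, also within 20 kb. Cd8a and the globin gene Hbb-bt had none within 1 kb, but 2, 1, 2 and 1 and then 1, 2, 1 and 0 within 20 kb. Both regulatory T cell markers, Foxp3 and Ikzf2, had peaks in every library, and of 3 Th17 markers 2, 2, 3 and 3 did. The part of other cells in the results was not tested. Each Th2 library had a peak at 4 of 4 Y-linked genes checked.

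The knockout label was then checked at Ets1 on chromosome 9, and the largest run of missing peaks was found there. Between 32897838 and 32940566 (GRCm38), a stretch of 42.7 kb that begins 140 kb beyond the end of Ets1, neither knockout library had a peak. Wild type 1 had 8 peaks and wild type 2 had 6 in the same stretch. Among 8640 stretches of the genome between neighbouring knockout peaks that held any wild-type peak, it held the most, 14, and the next held 7 spread over 1319 kb of the X chromosome. The labels used here do not give the deleted interval, so the stretch is described only by its peaks. It contains the noncoding RNA gene Gm27162 (32904069 to 32928966).

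Strength is given as the percentile of a peak within its own list, ranked by the −log10 q-value of the peak caller, from 0 for the weakest to 100 for the strongest. Of the regions in the stretch, 5 had a peak in both wild-type libraries. The region 32908024 to 32908483 stood at percentiles 55.3 and 77.2, and 32915637 to 32916118 at 67.2 and 75.4. The region 32924481 to 32925415 stood at 44.4 and 44.6, and 32928446 to 32928978 at 66.9 and 53.4. The weakest, 32926262 to 32926528, was at 14.2 and 50.7. The regions at 32908024, 32915637 and 32928446 stood above the 50th percentile in both wild-type lists, as 36 of all 1649 lost regions did. At its lower end the stretch is bounded by the region 32897267 to 32897837, open in all 4 libraries at 61.5, 24.6, 53.6 and 53.5. At its upper end it is bounded by a region with a peak in knockout 1 alone, 32940567 to 32940766, at percentile 21.2. The next region beyond that, 32941227 to 32941897, was open in all 4 libraries at 97.2, 93.9, 98.2 and 99.1.

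In the naive and Th1 libraries the same stretch was not uniform. The regions at 32915637 and 32926262 had peaks in both naive and both Th1 wild-type libraries and in no knockout library of either type. The region at 32928446 had peaks in all 4 naive libraries, knockout included, and in Th1 cells in the wild type alone. The region at 32908024 had no peak in any naive or Th1 library. So 1 of the 5 regions was called in Th2 wild-type cells only.

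**Figure D1:**
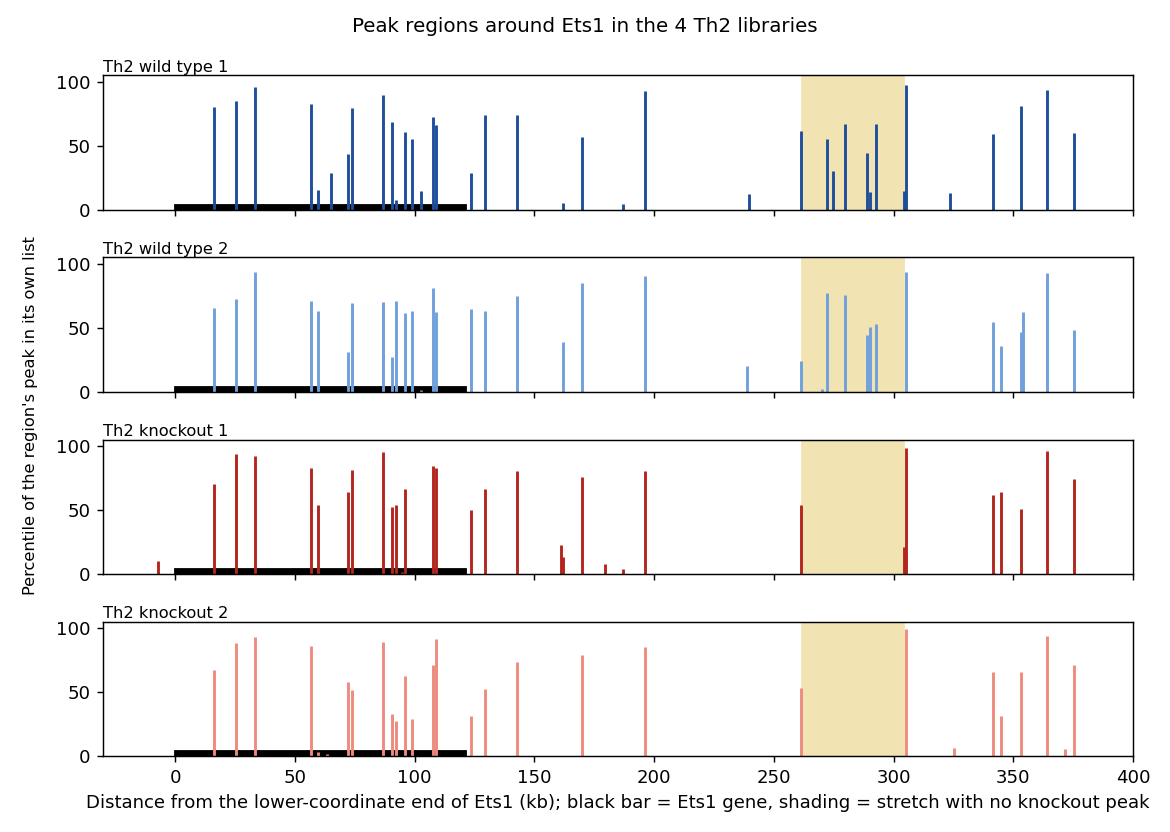
Peak regions from the lower-coordinate end of Ets1 (x axis, kb) in each Th2 library, with line height showing the percentile of the region in the library's own list. The shaded stretch of 42.7 kb holds 8 and 6 wild-type peaks and no knockout peak, while the Ets1 gene (black bar) has peaks in all 4 libraries.

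Ets1 itself stayed covered with peaks. With 20 kb on each side it had 21 regions, of which 18 and 17 had a peak in wild type and 17 and 17 in knockout, and 15 were open in all 4 libraries. A strong one, 32669340 to 32669886, stood at 96.3, 93.3, 92.4 and 92.8. A single region of Ets1, 32738555 to 32738941, had a peak in both wild-type libraries (percentiles 15.0 and 1.59) and none in knockout. The region 32744954 to 32745527 stood at 66.2 and 62.8 in wild type and at 83.0 and 91.6 in knockout, without overlap. Its rank differed by 31.4 points (SE 13.5), with an adjusted p of 0.909 in the limma fit described below. Fli1, the ETS factor gene next to Ets1, had 25 regions, 10 of them open in all 4 libraries, none lost and 1 gained (percentiles 13.6 and 41.0). Barx2, a homeobox gene, also had 1 gained region. Kcnj5 and Kcnj1, which encode potassium channels, and Arhgap32 had no lost or gained region.

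Across the genome, regions with a peak in both libraries of one genotype and in neither of the other were counted. Of 42180 regions with a peak in both wild-type libraries, 1649 (3.91%) had none in knockout and are called lost. Of 42953 with a peak in both knockout libraries, 1962 (4.57%) had none in wild type and are called gained. A further 36213 regions were open in all 4 libraries, and the other 33579 had a peak in a mix of libraries. Presence was not tested per region, since an exact test of 2 against 2 libraries cannot go below 0.333.

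The libraries did not separate by genotype. The wild-type pair shared 68.8% of the regions that either had and the knockout pair 67.6%, while pairs of different genotype shared 66.9% to 68.0%. Among the 36213 regions common to all, the Spearman correlation of ranks was 0.771 within wild type, 0.764 within knockout and 0.745 to 0.773 between genotypes. On both measures the range between genotypes included the value of the knockout pair. Single libraries had 3422 to 5906 regions that no other Th2 library had, more than the lost or the gained regions in all. Lost and gained regions need a peak in 2 libraries, so these counts are not directly comparable.

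**Figure D2:**
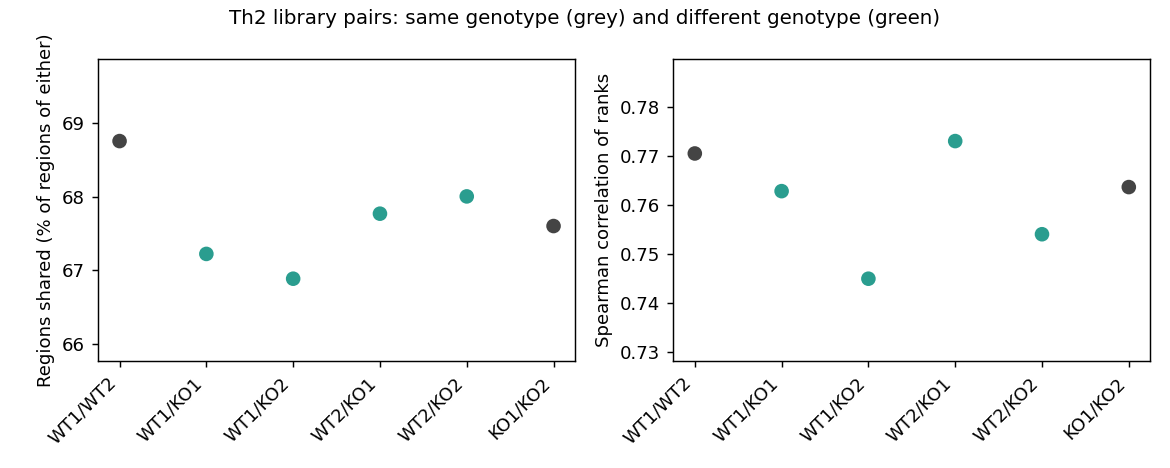
Share of regions in common (left, % of the regions of either library) and Spearman correlation of ranks (right, over 36213 common regions) for each of the 6 pairs of Th2 libraries. Neither axis starts at 0. The pairs of different genotype (green) lie at 66.9% to 68.0% and the knockout pair (grey) at 67.6%.

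Lost and gained regions were mostly weak and narrow, as were regions of mixed pattern. Lost regions had a median percentile of 22.7 and 20.5 in the wild-type lists, and gained regions 21.5 and 21.9 in the knockout lists. Regions open in all 4 libraries had medians of 64.2 to 67.1, and those of mixed pattern 21.4 to 22.3. Median width was 363 bp for lost and 362 bp for gained regions, against 657 bp for those open in all and 309 bp for mixed ones. A region is the union of its peaks, so its width can grow with the number of lists. Only 36 lost regions (2.18%) and 29 gained ones (1.48%) were above the 50th percentile in both lists that had them, and none was above the 75th in both. Among always-open regions, 57.3% were above the 50th and 27.9% above the 75th percentile in both wild-type lists.

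The strongest lost region by mean percentile lay in Lonrf3 on the X chromosome, at 73.3 and 73.3. The second was the Ets1 stretch region at 32915637, and another region of that stretch was sixth. Others in the strongest 10 lay in Sgms1, which encodes a sphingomyelin synthase (65.2 and 74.3), near Ifi47, an interferon-inducible GTPase gene (63.4 and 70.1), and near Klrb1b, an inhibitory lectin receptor gene of NK cells (66.0 and 64.5). Some of the strongest gained regions lay within genes and others far from the nearest protein-coding gene. They included a region nearest to Exoc2, an exocyst subunit gene (73.4 and 69.8), and 1 in Ahdc1 (70.1 and 58.9).

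Strength in the 36213 common regions was compared with limma on percentile ranks. None passed an adjusted p of 0.05 for a higher rank in knockout (0%) or for a lower one (0%), and the lowest adjusted p was 0.909. At an unadjusted p under 0.05, 895 regions (2.47%) were higher and 922 (2.55%) lower in knockout. Both knockout libraries stood above both wild-type libraries at 6261 regions (17.3%) and below them at 6240 (17.2%). The median SE of a difference was 13.8 percentile points and the median size of a difference 8.42. The median gap between libraries of the same genotype was 11.3. That gap is between single libraries, which spread more than genotype means do, so these values are not directly comparable.

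The percentile scale is bounded at 0 and 100, and on simulated ranks this fit called none of the planted shifts even where they were large, so its 0 says little about strength. Normal scores of the same ranks, which recovered most of the planted shifts where these were very large, also called 0 regions. Recovery of smaller shifts is not given here, so this 0 does not exclude them. Their lowest adjusted p was 0.743, and 2071 regions (5.72%) had an unadjusted p under 0.05. Leaving out knockout 1 brought the lowest adjusted p of the percentile fit to 0.137, again with 0 calls.

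The regions with the lowest p are given as values, and none differed after adjustment. A region in Cd247, the gene of the T cell receptor zeta chain, ranked 94.7 and 94.4 in wild type and 73.5 and 78.9 in knockout. One near Il1r2, a decoy receptor for IL-1, ranked 95.1 and 95.7 against 74.2 and 79.4. In the other direction, a region near Pag1, an adaptor that restrains T cell receptor signalling, ranked 53.6 and 62.6 in wild type and 89.7 and 92.9 in knockout. A region in Jchain, which joins immunoglobulin monomers, ranked 80.5 and 71.0 against 95.0 and 95.3.

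The 31 genes of the Th2 program had few regions that differed in presence. Within 20 kb they had 241 regions, of which 144 were open in all 4 libraries. Of 162 regions open in both wild-type libraries 2 were lost (1.23%, beside 3.91% of all), and of 156 open in both knockout libraries 3 were gained (1.92%, beside 4.57%). With a −log10 q of at least 2, 3 were lost and 5 gained, where 1576 were lost and 1575 gained in all. Their common regions had median ranks of 48.6 and 46.5 in wild type and 50.9 and 49.7 in knockout, and a median difference of 0.385 points, beside 0.0221 over all common regions.

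Gata3 had 7 regions, none lost or gained. The region over its start site at 9878600, 9878280 to 9878882 on chromosome 2, stood at percentiles 56.7 and 64.7 in wild type. In knockout it stood at 79.6 and 75.7. Both knockout values were above both wild-type values, but the lowest unadjusted p of any Gata3 region was 0.207. A second region of Gata3, 9867126 to 9867775, stood at 85.6, 72.0, 70.3 and 68.4.

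The cytokine locus from Kif3a to Il5 on chromosome 11 had 28 regions within 20 kb of its 5 genes. Each library had a peak at 20 or 21 of them (21, 20, 21 and 20), 15 were open in all 4, and none was lost or gained. The region 53617127 to 53618063, which covers an internal start site of Il4, stood at 79.0 and 48.9 in wild type and 76.1 and 56.0 in knockout. The wild-type libraries were further apart than the genotype means. The promoter window at the 5′ end of Il4, 53618616 to 53618915, had no peak in any of the 4 libraries. Within Rad50, the region 53650897 to 53651684 stood at 74.1, 84.0, 85.2 and 77.9. The Il13 promoter region, 53634562 to 53634852, had a peak in knockout 1 alone, at percentile 12.9. The lowest unadjusted p in the locus was 0.107, for a region of Kif3a, the kinesin gene at its edge, at 72.1 and 59.0 against 26.2 and 51.0.

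**Figure D3:**
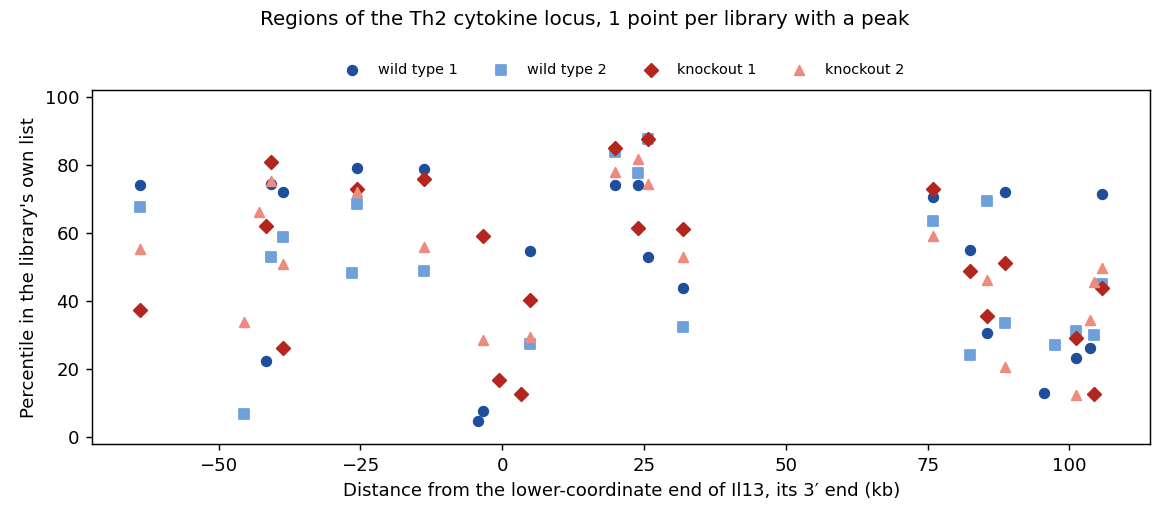
Percentile of each cytokine locus region in each library's own list (y axis) by distance from the lower-coordinate end of Il13 (x axis, kb), with 1 point per library that had a peak. Of 28 regions 15 have all 4 points, and wild-type and knockout points overlap at most of these. Both knockout points lie below both wild-type points at the regions starting at 53567069 and 53592433. They lie above them at 53590395 and 53662805. Over all common regions, ranks lay apart in these ways at 17.2% and 17.3%.

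Il4ra, the gene of the IL-4 receptor chain, had both lost regions of the list. They were 125557298 to 125557641 (percentiles 19.6 and 9.68) and 125580006 to 125580507 (24.9 and 9.01) on chromosome 7. Both were weak, and 9 of its 14 regions were open in all 4 libraries. Il1rl1, the gene of the IL-33 receptor ST2, had 1 gained region at 40427294 to 40427671 on chromosome 1 (40.3 and 33.9) among 14. Ecm1, a matrix protein gene of Th2 cells, gained 1 (1.42 and 4.43), and so did Tnfsf11, the RANKL gene, at its promoter (9.15 and 7.32).

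Stat6, which carries the IL-4 signal, and Gfi1, a repressor that acts in Th2 growth, each had 1 region with an unadjusted p under 0.05. The Stat6 region stood at 23.6 and 37.0 in wild type and 67.6 and 65.8 in knockout (rank difference 36.2 points, SE 15.7). The Gfi1 region stood at 64.0 and 55.2 against 84.5 and 87.2 (rank difference 35.5 points, SE 15.0). Both had an adjusted limma p of 0.909, and these were 2 of the 144 ranked regions of the list (1.39%, beside 5.02% of all ranked regions).

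The remaining Th2 genes had no lost or gained region. They comprise the cytokine genes Il10, Il24, Il9 and Areg, the receptor genes Ccr4, Ccr8, Ptgdr2, Il17rb, Crlf2 and Il6ra, the factor genes Maf, Irf4, Batf, Junb, Nfil3, Bhlhe41, Pparg and Epas1, and Cish and Penk. Junb, an AP-1 subunit gene, had 9 of 9 regions open in all 4 libraries. Pparg, a nuclear receptor gene, had 12, 9, 9 and 9 regions with a peak, and Irf4 12, 12, 12 and 9. Penk, the proenkephalin gene, had a peak in each knockout library and in neither wild-type library, but at different regions.

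The Th1 genes had 7 lost regions of 91 (7.69%, beside 3.91% of all) and 4 gained of 84 (4.76%, beside 4.57%). Runx3, a factor of Th1 and CD8 cells, had 2 lost regions, at percentiles 18.0 and 21.2 and at 32.9 and 15.0. Stat4, which carries the IL-12 signal, had 1 lost (32.5 and 0.334) and 1 gained (5.56 and 17.4). Il12rb2, whose product pairs to form the IL-12 receptor, likewise had 1 lost and 1 gained region, and Hlx, a homeobox factor gene, 1 gained. The count depended on weak peaks, since with a −log10 q of at least 2 there were 4 lost and 1 gained.

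The other lists are likewise to be read beside the shares over all regions, 3.91% lost and 4.57% gained. Among them, the IL-2 and survival genes had 9 lost regions of 110 (8.18%) and 1 gained of 95 (1.05%). Bcl2, the survival gene, lost 2 regions, at 56.7 and 63.4 and at 28.3 and 26.3, and 19 of its 29 regions were open in all libraries. Il2ra, the high-affinity IL-2 receptor chain gene, lost 2 (1.72 and 29.3, then 24.0 and 17.4), and Socs2, a feedback inhibitor gene of cytokine signals, lost 2. Il2rb gained 1. At a −log10 q of at least 2 the list had 5 lost and 0 gained regions. Regulatory T genes, which share Il2ra, had 6 lost of 75 (8%) and 2 gained of 74 (2.70%).

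ETS family genes had 7 lost of 122 (5.74%, beside 3.91% of all), among them 2 in Etv6 (21.7 and 1.72, then 41.5 and 37.7). They had 3 gained of 119 (2.52%, beside 4.57%). Genes of naive and memory T cells had 5 lost of 150 (3.33%) and 5 gained of 135 (3.70%). Lef1, Bach2 and Satb1, factor genes of naive T cells, each lost 1 and gained 1. Genes of T cell identity had 7 lost of 184 (3.80%) and 8 gained of 187 (4.28%), both near the shares over all regions. Cd6, a surface receptor gene, lost 3 and Tox, a factor gene of T cell development, gained 3.

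Cd28 gained 2 regions, at 54.0 and 8.88 and at 22.4 and 22.9. The Th17 genes, follicular helper genes and the CTCF and cohesin genes had 0 lost regions of 57, 39 and 49, beside 3.91% of all regions. They had 2 gained of 56 (3.57%), 2 of 44 (4.55%) and 3 of 52 (5.77%), beside 4.57% of all. Housekeeping genes, listed as a control, had 1 lost of 59 (1.69%) and 4 gained of 63 (6.35%), so a list with no T cell role also departed from the share over all regions. CD8 and NK cell genes had 3 gained of 31 (9.68%), which included 2 near Gzma, a granzyme gene. The counts are small, and no list was tested.

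**Figure D4:**
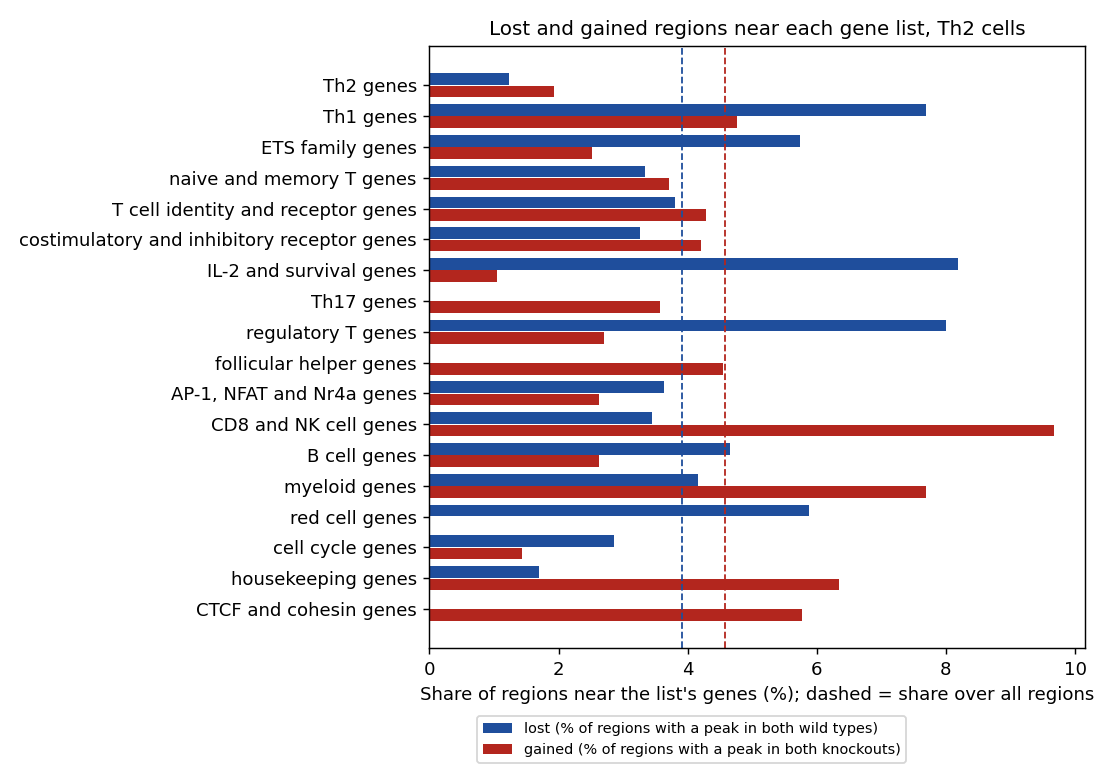
Lost regions (blue, % of regions with a peak in both wild-type libraries) and gained regions (red, % of regions with a peak in both knockout libraries) within 20 kb of the genes of each of 18 lists. The dashed lines are the shares over all regions, 3.91% and 4.57%, and the Th2 genes stand at 1.23% and 1.92%.

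Of the myeloid genes Cd14, which encodes a coreceptor for bacterial lipopolysaccharide, had 0 and 0 regions with a peak in wild type and 2 and 3 in knockout within 1 kb. Within 20 kb Cd14 had 3 and 4 in wild type and 6 and 6 in knockout, and 3 regions were open in all 4 libraries. Its 2 gained regions were weak (16.3 and 4.08, then 10.1 and 4.40), and neither was in a knockout list at a −log10 q of at least 2. Csf1r and Lyz2 had no peak in any Th2 library, and Itgam had 1, 1, 2 and 1 regions with a peak within 1 kb and 8, 7, 7 and 7 within 20 kb.

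The genes with most lost regions were St6gal1 and Maml2, with 4 each. St6gal1 encodes a sialyltransferase, and 16 and 12 of its 18 regions had a peak in wild type against 9 and 10 in knockout. Maml2, a coactivator gene of Notch, had 51 regions, so its 4 were a small part, and it also gained 1. Pim1, a kinase gene induced by cytokines, had 3 lost and 1 gained among 7 regions, and Rara, a retinoic acid receptor gene, 3 among 12. Jazf1, a zinc finger gene, had the most gained, 4 of 34 regions. Greb1 gained 3 of 7, and Fmnl2, a formin gene, had 7 and 8 regions with a peak in wild type against 14 and 13 of 15 in knockout. Of the protein-coding genes with a region, 19 had 3 lost regions and 2 had 4, while 22 had 3 gained and 1 had 4, and the genes named here were picked for these counts.

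Promoter sequences are shown for genes with a start site that had a peak in all 4 libraries and for genes with one that was lost or gained. RefSeq promoter windows for GRCm38.p6 cover 250 bases before to 50 after the start, and 21019 windows of 17250 genes were available. Of these 8904 had a peak in all 4 libraries, 89 were lost (84 genes) and 94 gained (90 genes). The windows of Runx3 and St6gal1 printed as lost are at internal start sites. The windows at the 5′ end of both genes had a peak in all 4 libraries. The Gata3 window is at the start site 9878600, inside the span of the gene (9857078 to 9887953). No window at the 5′ end of that span is printed. Sequences run 5′ to 3′ along the gene. Capitals mark matches, on either strand, to 4 short motifs. GGAAGT is the motif searched for ETS factors. TGANTCA is that for AP-1 factors. TGTGGT is that for RUNX factors. AGATAA is that for GATA factors, and no match overlapped another.
Gata3 promoter, chr2:9878551-9878850, minus strand, a peak in all 4 libraries: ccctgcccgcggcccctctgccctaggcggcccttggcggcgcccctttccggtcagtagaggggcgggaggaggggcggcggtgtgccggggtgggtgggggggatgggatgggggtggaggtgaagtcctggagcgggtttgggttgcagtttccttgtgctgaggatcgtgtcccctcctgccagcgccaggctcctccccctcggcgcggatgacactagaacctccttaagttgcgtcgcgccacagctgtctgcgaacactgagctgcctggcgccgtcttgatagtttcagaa
Il4 internal promoter, chr11:53617289-53617588, minus strand, a peak in all 4 libraries: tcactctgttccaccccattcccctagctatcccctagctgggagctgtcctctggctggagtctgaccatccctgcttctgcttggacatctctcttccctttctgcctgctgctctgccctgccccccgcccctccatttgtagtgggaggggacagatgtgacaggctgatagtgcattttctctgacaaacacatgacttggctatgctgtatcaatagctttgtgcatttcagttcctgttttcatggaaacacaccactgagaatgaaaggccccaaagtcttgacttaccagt
Il4ra promoter, chr7:125552021-125552320, plus strand, a peak in all 4 libraries: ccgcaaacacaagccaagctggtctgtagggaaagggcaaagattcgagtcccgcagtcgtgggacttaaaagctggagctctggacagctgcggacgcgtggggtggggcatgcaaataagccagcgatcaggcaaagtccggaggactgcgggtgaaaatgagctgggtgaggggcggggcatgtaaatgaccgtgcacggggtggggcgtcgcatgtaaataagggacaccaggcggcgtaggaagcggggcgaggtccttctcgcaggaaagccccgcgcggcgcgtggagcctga
Il13 promoter, chr11:53634653-53634952, minus strand, a peak in knockout 1 alone: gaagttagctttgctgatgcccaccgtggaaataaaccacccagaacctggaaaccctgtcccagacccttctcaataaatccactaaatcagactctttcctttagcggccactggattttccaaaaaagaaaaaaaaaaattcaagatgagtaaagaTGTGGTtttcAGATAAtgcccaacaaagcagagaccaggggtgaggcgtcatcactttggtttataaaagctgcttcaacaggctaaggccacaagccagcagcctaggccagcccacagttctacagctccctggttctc
Runx3 internal promoter, chr4:135152295-135152594, plus strand, lost: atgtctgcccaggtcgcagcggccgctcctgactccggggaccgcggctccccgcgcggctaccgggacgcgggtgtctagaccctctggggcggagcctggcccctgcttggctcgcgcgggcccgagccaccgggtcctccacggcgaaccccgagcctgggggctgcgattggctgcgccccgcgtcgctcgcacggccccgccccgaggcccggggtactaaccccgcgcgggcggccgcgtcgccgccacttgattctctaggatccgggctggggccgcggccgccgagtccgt
St6gal1 promoter, chr16:23225771-23226070, plus strand, lost: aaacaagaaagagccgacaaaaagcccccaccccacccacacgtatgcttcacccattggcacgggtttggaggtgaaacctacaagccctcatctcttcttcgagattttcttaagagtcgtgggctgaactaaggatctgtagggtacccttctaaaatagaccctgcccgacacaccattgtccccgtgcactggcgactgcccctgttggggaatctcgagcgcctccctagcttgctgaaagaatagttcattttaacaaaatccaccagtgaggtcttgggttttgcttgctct
Izumo1r promoter, chr9:14903718-14904017, minus strand, lost: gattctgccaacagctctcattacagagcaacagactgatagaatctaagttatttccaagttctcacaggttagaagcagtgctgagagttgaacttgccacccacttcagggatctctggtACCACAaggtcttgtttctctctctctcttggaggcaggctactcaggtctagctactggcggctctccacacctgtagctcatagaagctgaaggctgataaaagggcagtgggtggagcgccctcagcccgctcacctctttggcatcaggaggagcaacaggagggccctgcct
Tnfsf11 promoter, chr14:78307994-78308293, minus strand, gained: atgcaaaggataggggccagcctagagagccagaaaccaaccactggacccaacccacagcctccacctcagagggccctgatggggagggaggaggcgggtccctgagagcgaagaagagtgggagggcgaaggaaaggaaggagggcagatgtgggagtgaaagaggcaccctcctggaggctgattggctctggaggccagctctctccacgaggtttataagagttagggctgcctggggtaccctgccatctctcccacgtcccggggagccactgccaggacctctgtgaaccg

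In these windows the Il13 promoter held TGTGGT and AGATAA close together (bases 160 to 165 and 170 to 175), and the Izumo1r promoter held TGTGGT on the reverse strand (bases 124 to 129). The other windows printed above held no match to any of the 4 motifs. Izumo1r, the gene of the folate receptor 4 of regulatory T cells, had its region at 27.9 and 10.4 in wild type. GGAAGT stood in 30.9% of promoters open in all 4 libraries, in 21.3% of lost ones (19 of 89) and in 21.3% of gained ones (20 of 94), beside 20.4% of those with no Th2 peak and 25.0% of every promoter. Lost and gained promoters thus had near-equal shares. AGATAA stood in 2 lost (2.25%) and 6 gained promoters (6.38%), beside 4.98% of always-open and 9.69% of every promoter. TGTGGT was in 7.87% of lost and 11.7% of gained promoters, beside 14.7% of every promoter, and TGANTCA in 5.62% and 2.13%, beside 7.04%. A match describes letters in a window only.

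The naive and Th1 libraries, which played no part in choosing the regions, were read at the lost and gained regions. Of the lost regions, the naive wild-type libraries had a peak at 40.0% and 40.8%, and the naive knockout libraries at 28.7% and 30.9%. Gained regions had one in 29.7% and 30.9%, then 21.1% and 25.5%. Regions of mixed pattern moved alike, with 29.6% and 31.4% against 22.0% and 24.1%, and naive knockout lists were shorter (41075 and 43823 peaks against 52571 and 56195). Both naive wild-type libraries had a peak at 4 of 4 Y-linked genes, and both naive knockout libraries at 0 of 4. A difference of sex thus cannot be told apart from genotype in the naive cells. In Th1 cells, where wild type 2 had the shortest list of the series (34746 peaks), lost regions had a peak in 34.1% and 22.2% in wild type and 30.3% and 29.3% in knockout, which overlap. Gained regions had one in 28.1% and 16.2%, then 30.1% and 29.1%, and mixed regions in 25.5% and 15.9%, then 26.5% and 25.9%. In Th1 cells, gained and mixed regions were both above their wild-type values in both knockout libraries.

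**Figure D5:**
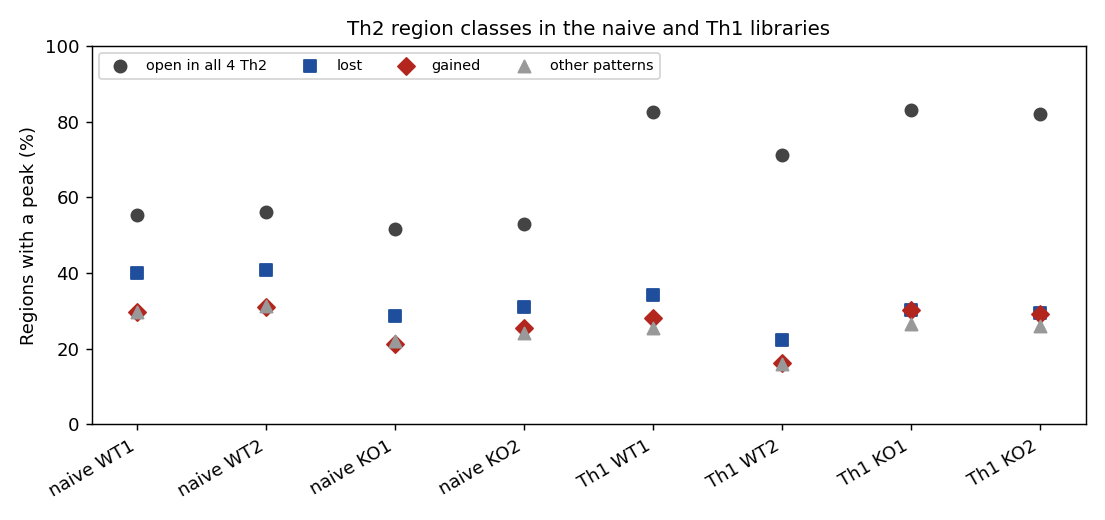
Share of Th2 regions (y axis, %) at which each naive or Th1 library (x axis) had a peak, for regions open in all 4 Th2 libraries, lost, gained or of other patterns. The lost class lies at 40.0% and 40.8% for naive wild type against 28.7% and 30.9% for naive knockout, and the gained class and other patterns are also lower in the naive knockout libraries.

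Of the 1649 lost regions, 56 (3.40%) were also lost in Th1 knockout cells, where they made up 6.10% of the 918 Th2 regions lost there. In naive knockout cells, with 1 biological replicate per genotype, 127 (7.70%) were lost, 4.49% of 2826. Of regions open in all 4 Th2 libraries, 0.939% were lost in Th1 cells and 2.55% in naive cells, and of mixed regions 1.47% and 5.04%. Among 1962 gained regions 84 (4.28%) were also gained in Th1 cells, 3.46% of the 2425 gained there, beside 2.97% of always-open and 3.63% of mixed regions. Only 9 regions were lost in all 3 cell types, and 2 of them lay in the Ets1 stretch. The other 7 were near Ssx2ip, Nfia, Slc25a26, Endod1, Pxylp1, Slc39a4 and Tsga10ip. A single region, in Cecr2, a chromatin remodelling gene, was gained in all 3.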

How the data were processed

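ATAC-seq peak lists of 2 wild-type and 2 knockout Th2 libraries were used. Per the submitters' processing notes, BWA, Picard and MACS2 were used with GRCm38, with no version named. The deposited lists have 9 columns, which by their layout hold a score, a fold enrichment (ratio), a −log10 p-value and a −log10 q-value for each peak. These values were scaled within a library, so the deposited −log10 q-values served only to rank peaks within a list. Depth is unknown, so no counting interval is given.

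Peaks on chromosomes 1 to 19 and X that overlapped by at least 1 bp were merged. The percentile ranks of regions common to all 4 lists were fitted with limma 3.58.1 (R 4.3.3, trend) and adjusted by Benjamini-Hochberg over all of them. The fit was run on simulated data and made no call on the percentile scale, as the report states. Its fitted differences equalled those of the group means of the simulated ranks. That equality holds by construction, so it is no test of recovery. Genes came from the GRCm38.p6 RefSeq table, which held all 277 list genes, with 20 kb on each side. Named were Ets1 and genes within 1 Mb, all Th2 genes, the 4 members of other lists with most lost and gained regions, and the 10 genes and regions that led each direction; genes of unclear function were left out. The promoters printed, and genes and regions named outside this rule, were chosen after their values were seen. The regions, members and lists were chosen with earlier results of these data known. Alternatives were other peak thresholds, overlaps, windows and scales, and leaving out each library. Some results are not reported here.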

Additional observations from a re-analysis of the deposited data

Results flagged for a closer look

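Some regions moved in opposite directions in the 2 polarized cell types. Of the regions lost in Th2 knockout cells, 49 (2.97%) were gained in Th1 knockout cells, with a peak in both libraries of one genotype and in neither of the other in each cell type. The same share, 2.97%, of regions open in all 4 Th2 libraries was gained in Th1 cells, and 3.63% of mixed regions. Of the regions gained in Th2 knockout cells, 30 (1.53%) were lost in Th1 knockout cells, beside 0.939% of always-open and 1.47% of mixed regions. Both shares are thus near those of regions that were neither lost nor gained in Th2 cells. The difference between cell types was not tested.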

How the results depend on the processing

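Over the alternatives that kept all 4 libraries, lost regions numbered 1576 to 2113, gained 1575 to 2449 and regions open in all 4 libraries 29047 to 36107, all within 1.5 times of the reported counts. The same count did not mean the same regions: with a −log10 q of at least 2, 748 of the 1649 lost (45.4%) and 773 of the 1962 gained (39.4%) were called again. With lists of equal length (51600 peaks), 1860 were lost and 1666 gained, so the excess of gained over lost regions turned round. Leaving out 1 library at a time, which asks for a peak in fewer libraries, gave 3328 to 6577 lost and 4239 to 7978 gained regions, and 37887 to 38943 open in all libraries left. Lost regions near Th2 genes then numbered 7 to 16 and gained 6 to 16, and near Th1 genes 12 to 15 and 6 to 14. Regions open near each list under the alternatives are not given here. These and the other list counts under the alternatives thus have no share to set beside that over all regions.

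With a −log10 q of at least 2, Th2 genes had 5 gained regions, and Th1 genes 4 lost and 1 gained. With 5 kb around the gene, Th1 genes had 2 gained. The Ets1 stretch held 11 wild-type peaks at a −log10 q of at least 2, 14 with lists of equal length, and 6 to 14 without 1 library.

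The rank fit called 0 regions under every alternative run, with 0 higher and 0 lower with a replicate block (lowest adjusted p 0.670, 2127 with an unadjusted p under 0.05). Samples of the same number did not deviate together (correlation -0.00245), so the numbers were not taken to pair them. Unknown depth limits every call of an absent peak.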
